A study of Mus musculus and Homo sapiens with 12 samples.

Results

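The genes described here are 10 genes of antigen processing and presentation: B2M, TAP1, TAP2, TAPBP, PSMB8, PSMB9, PSMB10, NLRC5, CD74 and CIITA. They were taken from a fixed list of symbols and were found, all 10 of 10, among the 55487 mouse genes and among the 78932 human genes counted. They were followed in blood progenitors with and without DDX21, an RNA helicase of the nucleolus, in 12 libraries of polyadenylated RNA, 3 in each of 4 groups. The mouse cells were live lineage-negative, Kit-positive (LK) progenitors sorted from E13.5 (embryonic day) fetal liver. Both mouse groups had floxed Ddx21 alleles (Ddx21f/f). The WT group had no Cre, and the conditional knockout group (cKO; Vav-Cre; Ddx21f/f) had Cre driven by Vav, which is active throughout the blood lineage, so the loss was not limited to the sorted stage. The human cells were blood stem cell-like cells made from H1, a human embryonic stem cell line, and all of them were transduced with a lentivirus that carries mCherry. Its hairpin was either a control (shNC) or one that targets DDX21 (shDDX21). Then CD34+ CD45+ CD43+ cells positive for the vector were sorted 2 days later. The human experiment rests on a single cell line. Whether the 3 libraries of a group came from separate embryos or cultures is not stated in the labels. The p-values below therefore measure the spread between these libraries, which may be technical in part.

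Most cells display peptides from their own proteins on major histocompatibility complex (MHC) class I molecules. The immunoproteasome, in which PSMB8, PSMB9 and PSMB10 replace the constitutive catalytic subunits PSMB5, PSMB6 and PSMB7, cuts proteins into peptides. The TAP1 and TAP2 heterodimer pumps the peptides into the endoplasmic reticulum, and tapasin, the product of TAPBP, holds empty class I molecules close to the transporter. B2M is the light chain shared by all class I molecules, and NLRC5 is the transactivator of class I genes. Class II molecules present peptides taken up from outside, mainly in dendritic cells, B cells and macrophages. CD74 is the invariant chain that guards their groove, and CIITA is their transactivator. Many of these genes respond to interferons.

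Libraries held 21116079 to 23898130 counts in the mouse and 15289510 to 19798608 in the human experiment. The targeted gene was lower in every perturbed library: Ddx21 by a log2 fold change of -2.35 and DDX21 by -2.78 (edgeR adjusted p = 5.91e-08 and 1.33e-70), over the whole gene and not over the deleted part alone. Of all genes tested, 36.5% were called in the mouse (3083 higher, 2360 lower, or 3565 and 1612 with libraries scaled by total count) and 52.7% in the human experiment (5105 higher, 5526 lower, or 6255 and 4635 with upper-quartile scaling). The median log2 fold change over all genes was 0.00057 and 0.0052. Among mouse libraries, WT replicate 3 and cKO replicate 2 departed from their groups in the same way (correlation of deviations 0.714 across genes), as did WT replicate 1 and cKO replicate 1 (0.644). The first pair was left out as an alternative chosen after seeing the data, and mouse results were also computed without both. Human replicates differed from each other by little more than sampling noise (chi-square per degree of freedom 1.54 to 1.71).

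The level of each gene in control cells was set out first, per kilobase of exon (FPKM, the CPM defined below divided by the exon length in kilobases), so that genes could be placed in order. In mouse WT cells B2m stood at 117 ± 1.88 FPKM (SD over 3 libraries, here and below). Psmb10 followed at 24.7 ± 7.80, Tapbp at 11.9 ± 1.45 and Tap2 at 4.35 ± 0.966 FPKM. Psmb8 was at 2.73 ± 0.316, Tap1 at 1.79 ± 0.157 and Psmb9 at 1.30 ± 0.169 FPKM. Cd74 was at 0.344 ± 0.170, Nlrc5 at 0.0330 ± 0.00976 and Ciita at 0.0194 ± 0.0175 FPKM. The 2 transactivators and the invariant chain were thus the 3 lowest of the 10, and the only neighbours in this order whose libraries overlapped were Nlrc5 and Ciita. In cKO cells Tap1, at 8.59 ± 1.11 FPKM, stood above both Psmb8 at 3.06 ± 0.0596 and Tap2 at 6.07 ± 0.725, which it was below in WT, and overlapped with Tapbp at 9.37 ± 1.22. The order of the other genes was the same.

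Human control cells had a different order. B2M was again the highest at 88.5 ± 1.60 FPKM, but CD74 came next at 24.2 ± 0.389 FPKM, ahead of PSMB10 at 8.57 ± 1.00. TAPBP was at 2.27 ± 0.120, PSMB8 at 1.86 ± 0.325, TAP1 at 1.496 ± 0.210 and NLRC5 at 1.21 ± 0.0548 FPKM. CIITA was at 0.635 ± 0.0473, PSMB9 at 0.160 ± 0.0120 and TAP2 at 0.0550 ± 0.0179 FPKM. Only PSMB8 and TAP1 overlapped as neighbours. In shDDX21 cells PSMB8 (4.17 ± 0.294 FPKM) moved ahead of TAPBP (3.84 ± 0.188), with overlapping libraries, and the rest of the order was the same. Species, tissue of origin and culture differ together between the experiments, so levels were not compared across them.

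**Figure D1:**
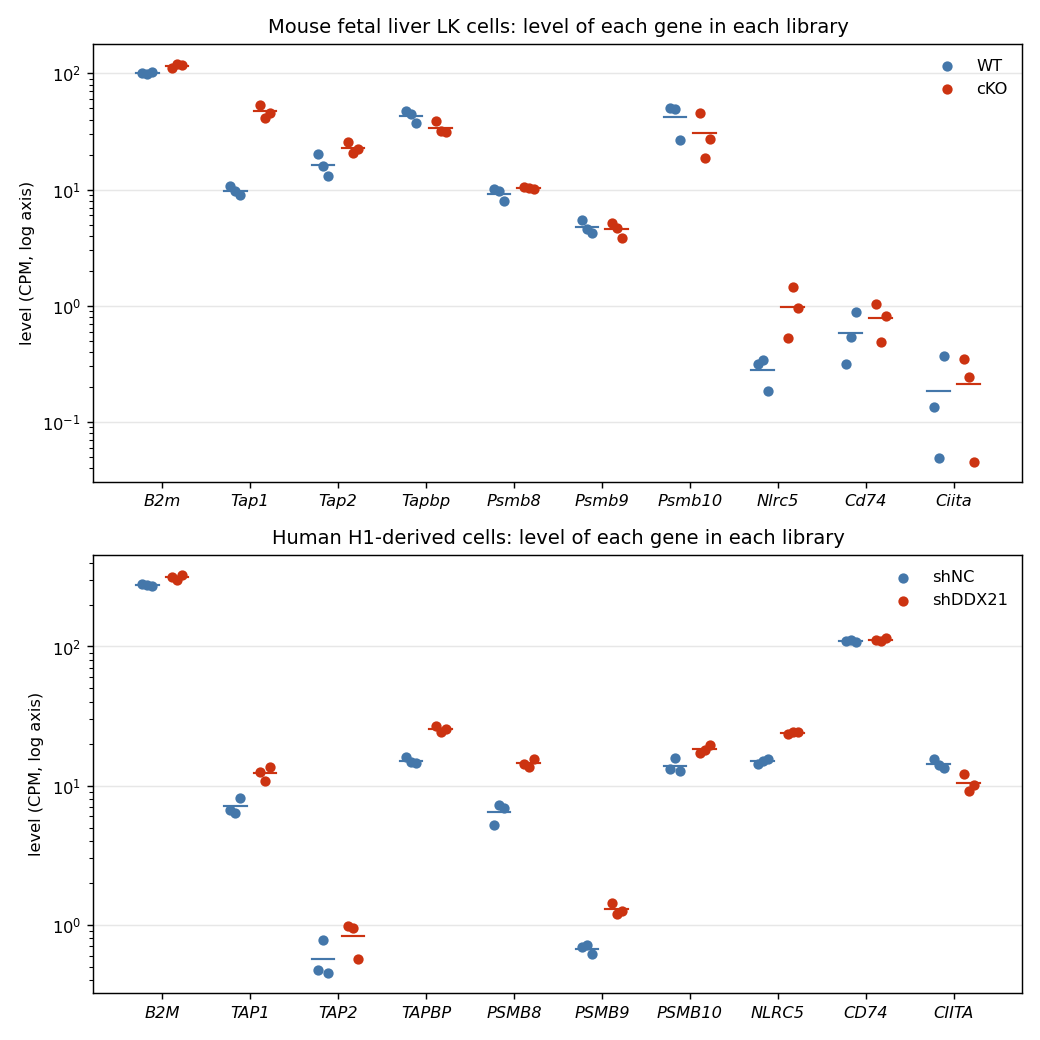
Level of each of the 10 genes in each library, in CPM on a log axis, for mouse (top) and human cells (bottom). Points are libraries and bars group means. Mouse Tap1 sits at 8.96 to 10.7 CPM in WT and at 41.6 to 53.6 CPM in cKO. In the human cells 7 genes sit above their controls in every library and CIITA sits below.

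The mouse comparison asked how the loss of Ddx21 in blood cells alters these genes. Tap1 rose 4.80-fold and B2m rose 1.15-fold. Nlrc5 was called higher as well (3.48-fold), but from very few reads and after passing the filter on low counts only through the cKO group. The other 6 genes tested (Tap2, Tapbp, Psmb8, Psmb9, Psmb10 and Cd74) did not pass the test. The count was therefore 3 of 9 tested higher and 0 lower, against 20.7% of all genes called higher and 15.8% called lower, with a median log2 fold change of 0.21. With the filter set at 10 or more counts in every library, Nlrc5 was not tested and 2 of 7 were called. Levels below are CPM (read counts scaled by edgeR to the library's TMM-adjusted total), and differences are log2 fold changes with a standard error (SE). Every adjusted p comes from the edgeR quasi-likelihood fit, Benjamini-Hochberg adjusted over all genes tested, and a gene was called under 0.05. Bulk RNA cannot tell fewer cells of a type from less RNA per cell.

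Tap1 (ENSMUSG00000037321; GRCm38 chromosome 17, 34187553 to 34197225, plus strand) had 10.7, 9.73 and 8.96 CPM in the WT libraries and 53.6, 41.6 and 45.9 CPM in the cKO libraries. The lowest cKO library was far above the highest WT library. On the log2 scale Tap1 was higher by 2.26 (SE 0.117, adjusted p = 1.34e-05). It was called under all 14 alternative settings tried, between 2.17 and 2.36.

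Its partner Tap2 (ENSMUSG00000024339; chromosome 17, 34203527 to 34216321, plus strand) had 20.4, 15.8 and 13.1 CPM in WT and 25.9, 20.5 and 22.4 CPM in cKO. The groups did not overlap, although WT replicate 1 almost reached cKO replicate 2. The log2 fold change of 0.48 (SE 0.166) gave an adjusted p of 0.0588. This value lies close to the threshold: Tap2 was called under 9 of 14 alternatives, with adjusted p from 0.0174 to 0.164. The log2 ratio of Tap1 to Tap2 counts, which needs no scaling between libraries, was -0.93, -0.70 and -0.55 in WT and 1.05, 1.02 and 1.04 in cKO. Tap1 had fewer counts than Tap2 in every WT library and more in every cKO library. The ratio was 3.39-fold higher in cKO (exact two-sided permutation p = 0.1, the smallest that 3 against 3 libraries can give), and it was added after the values had been seen.

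Tapbp (ENSMUSG00000024308; chromosome 17, 33915899 to 33929292, plus strand), which encodes tapasin, had 47.4, 44.5 and 37.2 CPM in WT and 39.1, 31.6 and 31.2 CPM in cKO. The groups overlapped, as cKO replicate 1 was above WT replicate 3. Its log2 fold change of -0.34 (SE 0.121) had an adjusted p of 0.0632. Tapbp too lies close to the threshold, with a call as lower under 8 of 14 alternatives and adjusted p from 0.0148 to 0.195. Of its exon length, 24.9% is shared with the opposite-strand gene Gm19412, which had 2 counts in the 6 libraries together. The same-strand gene Zbtb22 shares 4.1% (149 bases) and had 2911 counts to 5140 for Tapbp, so the split of reads there is uncertain.

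The light chain gene B2m (ENSMUSG00000060802; chromosome 2, 122147686 to 122153083, plus strand) had 101, 99.3 and 103 CPM in WT and 111, 121 and 117 CPM in cKO. Every cKO library was above every WT library, by a small margin. This rise was 0.21 on the log2 scale (SE 0.0434, adjusted p = 0.00933). DESeq2 did not call it (adjusted p = 0.0697).

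None of the 3 immunoproteasome genes passed the test in the mouse. Psmb8 (ENSMUSG00000024338; chromosome 17, 34197721 to 34201454, plus strand) had 10.0, 9.64 and 8.03 CPM in WT and 10.5, 10.4 and 10.1 CPM in cKO. These groups did not overlap, but the log2 fold change of 0.16 (SE 0.106) had an adjusted p of 0.264. Psmb9 (ENSMUSG00000096727; chromosome 17, 34181987 to 34187764, minus strand) had 5.43, 4.58 and 4.22 CPM in WT and 5.18, 4.70 and 3.85 CPM in cKO. The groups lay on top of each other, at -0.05 on the log2 scale (SE 0.155, adjusted p = 0.827). Psmb9 lies head to head with Tap1, and the 2 genes share 212 exon bases on opposite strands, 5.8% of the Psmb9 exon length. Counting with or without strand is not given, so some reads from that stretch could be counted for neither gene or for the wrong one. The log2 ratio of Tap1 to Psmb9 counts was 0.97, 1.09 and 1.08 in WT and 3.37, 3.14 and 3.57 in cKO. The ratio of these neighbours was thus 4.96-fold higher in cKO (exact two-sided permutation p = 0.1, also added after the values had been seen).

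Psmb10 (ENSMUSG00000031897; chromosome 8, 105935735 to 105938444, minus strand) had the widest relative spread within both groups among the mouse genes other than Nlrc5, Cd74 and Ciita. It had 50.6, 49.0 and 26.8 CPM in WT and 45.2, 18.9 and 27.3 CPM in cKO. WT replicate 3 was near the 2 lower cKO libraries, and cKO replicate 1 was near the 2 higher WT libraries. Its log2 fold change of -0.47 (SE 0.348) had an adjusted p of 0.327, and moved to -0.20 without cKO replicate 2, -0.31 without WT replicate 1, -0.71 without WT replicate 3 and -0.85 without cKO replicate 1 (adjusted p = 0.05004, just above the threshold). Across all genes WT replicate 3 stood apart from the other WT libraries, and cKO replicates 1 and 2 lay farthest from each other (chi-square per degree of freedom 15.3 and 10.6 for WT replicate 3, 25.5 for the cKO pair). WT replicate 3 was also the lowest WT library for Tap1, Tap2, Tapbp, Psmb8 and Psmb9.

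Nlrc5 (ENSMUSG00000074151; chromosome 8, 94434356 to 94527272, plus strand), the class I transactivator, had 7, 7 and 4 reads in WT and 12, 36 and 21 in cKO. Every cKO library was above every WT library, and the gene passed the filter on low counts only through the cKO group. Nlrc5 was higher by 1.80 on the log2 scale (SE 0.473, adjusted p = 0.0223). The call was lost without WT replicate 1 (adjusted p = 0.0623), WT replicate 2 (0.0589), WT replicate 3 (0.0608) or cKO replicate 3 (0.0618), and without both WT replicate 3 and cKO replicate 2 (1.16, adjusted p = 0.0871).

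The class II genes were near the limit of detection in mouse LK cells. Cd74 (ENSMUSG00000024610) had 7, 11 and 19 reads in WT and 24, 12 and 18 in cKO, and the groups overlapped. With SE 0.431 around a log2 fold change of 0.43, Cd74 did not pass (adjusted p = 0.468). Ciita (ENSMUSG00000022504; chromosome 16, 10480059 to 10528418, plus strand) had 3, 1 and 8 reads in WT and 8, 6 and 1 in cKO, too few to be tested. A change in either gene smaller than this spread could not be seen at this depth.

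The human comparison asked the same question 2 days after knockdown of DDX21. Here 7 of the 10 genes rose and 1 fell: PSMB8 2.26-fold, PSMB9 1.91-fold, TAP1 1.73-fold, TAPBP 1.69-fold, NLRC5 1.60-fold, PSMB10 1.31-fold and B2M 1.14-fold higher, and CIITA lower at 0.735 of its control level. TAP2 and CD74 did not pass the test. For comparison, 25.3% of all human genes were called higher and 27.4% lower. The median log2 fold change of the 10 genes was 0.62. The 7 genes that rose have roles in the class I pathway, as does TAP2, which was not called. Whether class I and class II genes differed was not tested.

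PSMB8 (ENSG00000204264; chromosome 6, 32840717 to 32844679, minus strand) had 5.19, 7.31 and 6.92 CPM with the control hairpin and 14.4, 13.6 and 15.6 CPM with shDDX21. The lowest shDDX21 library was well above the highest control. PSMB8 rose by 1.18 on the log2 scale (SE 0.110, adjusted p = 2.76e-15). PSMB9 (ENSG00000240065; chromosome 6, 32844136 to 32860734, plus strand) was measured with few reads, 13, 11 and 11 in shNC and 28, 20 and 22 in shDDX21. Its groups did not overlap, and it rose by 0.94 on the log2 scale (SE 0.340, adjusted p = 0.0162). PSMB9 shares 139 exon bases, 3.3% of its exon length, with the opposite-strand PSMB8, which had 1116 counts to 105 for PSMB9. It shares 4.1% with the same-strand gene ENSG00000204261, which had 0 counts. The strand setting is not given, so some reads there could be counted for the wrong gene or for neither. The PSMB9 call was lost without shNC replicate 3 (adjusted p = 0.0523), without shDDX21 replicate 1 (0.0685) and with DESeq2 (0.0592).

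PSMB10 (ENSG00000205220; chromosome 16, 67934506 to 67936864, minus strand) had 13.2, 15.8 and 12.8 CPM in shNC and 17.1, 18.1 and 19.5 CPM in shDDX21. The highest control library stayed below the lowest shDDX21 library. PSMB10 rose by 0.39 on the log2 scale (SE 0.0867, adjusted p = 7.96e-05). A same-strand gene, ENSG00000261884, covers 39.4% of the PSMB10 exon length in the deposited table and had 538 counts to 1699 for PSMB10, so the split of reads between them is uncertain.

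Of the transporter genes, TAP1 (ENSG00000168394; chromosome 6, 32845209 to 32853816, minus strand) had 6.72, 6.33 and 8.22 CPM in shNC and 12.5, 10.8 and 13.7 CPM in shDDX21, with no overlap. TAP1 rose by 0.79 on the log2 scale (SE 0.112, adjusted p = 4.89e-09). TAP2 (ENSG00000204267; chromosome 6, 32821833 to 32838739, minus strand) had only 9, 12 and 8 reads in shNC and 19, 16 and 10 in shDDX21. These groups overlapped, and the log2 fold change of 0.57 (SE 0.401) had an adjusted p of 0.240. A same-strand gene, ENSG00000250264, covers 19.5% of the TAP2 exon length and had 0 counts. Reads from that stretch could therefore have been counted for neither gene, which would lower the TAP2 level. The log2 ratio of TAP1 to TAP2 counts was 3.61 ± 0.585 in shNC and 3.88 ± 0.563 in shDDX21, a difference of 0.27 (exact two-sided permutation p = 0.6). For TAP1 over PSMB9 it was 3.33 ± 0.304 and 3.22 ± 0.172, a difference of -0.11 (exact two-sided permutation p = 0.7).

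TAPBP (ENSG00000231925; chromosome 6, 33299694 to 33314284, minus strand) had 16.0, 14.7 and 14.5 CPM in shNC and 26.8, 24.3 and 25.4 CPM in shDDX21. The groups stood apart, and TAPBP rose by 0.76 on the log2 scale (SE 0.0761, adjusted p = 5.26e-14). B2M (ENSG00000166710; chromosome 15, 44711358 to 44718851, plus strand) had 281, 277 and 271 CPM in shNC and 313, 302 and 326 CPM in shDDX21. The step was small and present in every library: 0.18 on the log2 scale (SE 0.0258, adjusted p = 5.55e-09).

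The 2 transactivators moved in opposite directions in the human cells. NLRC5 (ENSG00000140853; chromosome 16, 56989485 to 57083531, plus strand) had 14.3, 15.01 and 15.6 CPM in shNC and 23.5, 24.4 and 24.1 CPM in shDDX21, with little spread in either group. It rose by 0.68 (SE 0.0766, adjusted p = 4.36e-12). CIITA (ENSG00000179583; chromosome 16, 10866222 to 10943021, plus strand) had 15.5, 14.2 and 13.3 CPM in shNC and 12.2, 9.13 and 10.1 CPM in shDDX21. All shDDX21 libraries were below all controls, and CIITA fell by 0.44 on the log2 scale (SE 0.0987, adjusted p = 8.67e-05). The opposite-strand gene DEXI shares 10.7% of the CIITA exon length and had 455 counts to 1315 for CIITA.

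CD74 (ENSG00000019582; chromosome 5, 150401637 to 150412969, minus strand), the invariant chain, had 110.0, 111 and 108 CPM in shNC and 112, 109 and 115 CPM in shDDX21. The groups overlapped, and CD74 stood at 0.03 on the log2 scale (SE 0.0338, adjusted p = 0.435). It was called, at 0.10 (adjusted p = 0.00749), under upper-quartile scaling, which moved the median of all genes to 0.074.

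**Figure D2:**
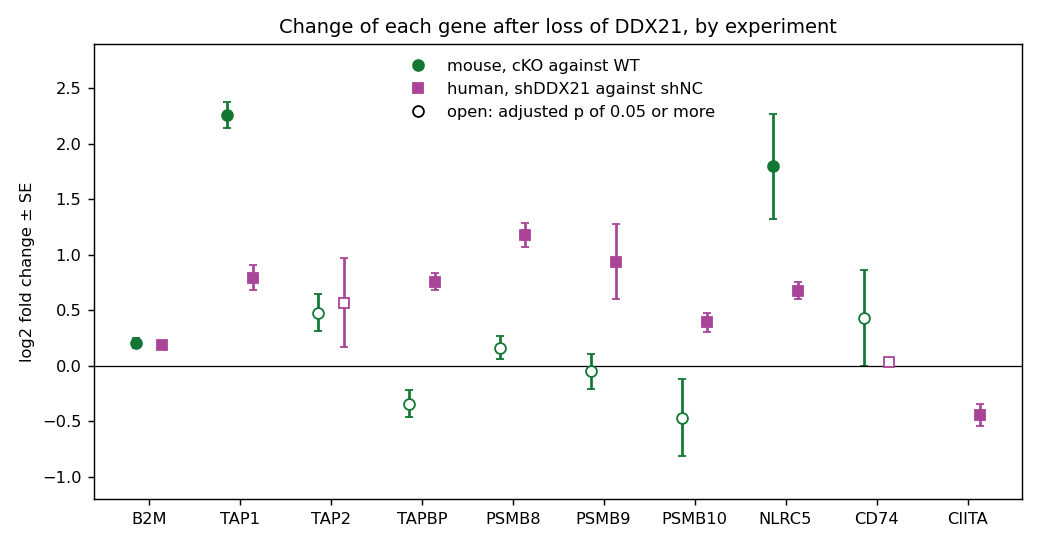
Log2 fold change with its SE for each gene in the mouse (cKO against WT) and human experiment (shDDX21 against shNC); open symbols have an adjusted p of 0.05 or more. Mouse Tap1 stands out at 2.26, human PSMB8 is the highest human value at 1.18, and TAPBP, PSMB8, PSMB9 and PSMB10 lie above 0 in the human and near or below it in the mouse cells.

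Whether the effects differed between the experiments was tested directly, as an interaction in a fit of all 12 libraries over the 10301 genes tested in both. Of the 9 members tested there, 5 had different effects, against 56.3% of all genes. The effect on TAP1 was larger in the mouse by 1.47 (SE 0.186, adjusted p = 3.75e-05). The effect was smaller in the mouse for TAPBP, by -1.10 (SE 0.152, adjusted p = 7.52e-05), for PSMB8, by -1.01 (SE 0.174, adjusted p = 0.000417), and for PSMB9, by -0.99 (SE 0.277, adjusted p = 0.00985). These 4 differences were called under all 19 alternatives. NLRC5 differed by 1.12 (SE 0.412, adjusted p = 0.0362), but the call was lost under 11 of 18 alternatives, and without WT replicate 3 and cKO replicate 2 the difference was 0.48 (adjusted p = 0.340). The effects on B2M differed by 0.023 (SE 0.0535, adjusted p = 0.739), and those on TAP2, CD74 and PSMB10 by -0.094, 0.40 and -0.86 (SE 0.438, 0.337 and 0.426), none of which passed. PSMB10 passed without cKO replicate 1 (-1.25, adjusted p = 0.00628), without WT replicate 3 (-1.11, adjusted p = 0.0225) and without both WT replicate 3 and cKO replicate 2 (-0.84, adjusted p = 0.00445). CD74 passed without both as well (1.12, adjusted p = 0.00817). Agent, time since loss, species and cell source differ together between the experiments and cannot be told apart.

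The balance between immunoproteasome subunits and the constitutive subunits they replace was computed within each library, as the log2 ratio of counts with 0.5 added. In the human cells the ratio was higher in all 3 shDDX21 libraries than in all 3 controls for each of the 3 pairs. PSMB8 over PSMB5 was -4.34, -3.95 and -3.94 in shNC and -3.17, -3.28 and -2.93 in shDDX21, 1.94-fold higher. PSMB9 over PSMB6 was -6.58 ± 0.102 in shNC and -5.86 ± 0.107 in shDDX21, 1.64-fold higher. PSMB10 over PSMB7 was -3.13 ± 0.180 and -2.57 ± 0.0533, 1.48-fold higher, with PSMB10 at 0.39 and PSMB7 at -0.18 on the log2 scale. Each exact two-sided permutation test gave p = 0.1, the smallest value this design allows, so none can pass 0.05. Negative ratios mean that each immunoproteasome gene had fewer counts than its constitutive counterpart in both groups.

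In the mouse cells the differences of the 3 pairs were 0.51, 0.07 and -0.59. Psmb8 over Psmb5 was -3.39, -3.38 and -3.28 in WT and -3.11, -2.60 and -2.81 in cKO, 1.43-fold higher without overlap (exact two-sided permutation p = 0.1). Taken alone, Psmb8 was at 0.16 and Psmb5 at -0.34 on the log2 scale, and neither was called. Psmb9 over Psmb6 was -4.68 ± 0.117 in WT and -4.61 ± 0.278 in cKO (exact two-sided permutation p = 0.8). Psmb10 over Psmb7 was -1.86, -1.93 and -2.81 in WT and -2.11, -3.44 and -2.83 in cKO, with WT replicate 3 and cKO replicate 2 the lowest of their groups (exact two-sided permutation p = 0.2). Its difference was -0.27 without cKO replicate 2, -0.90 without WT replicate 3 and -0.94 without cKO replicate 1.

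**Figure D3:**
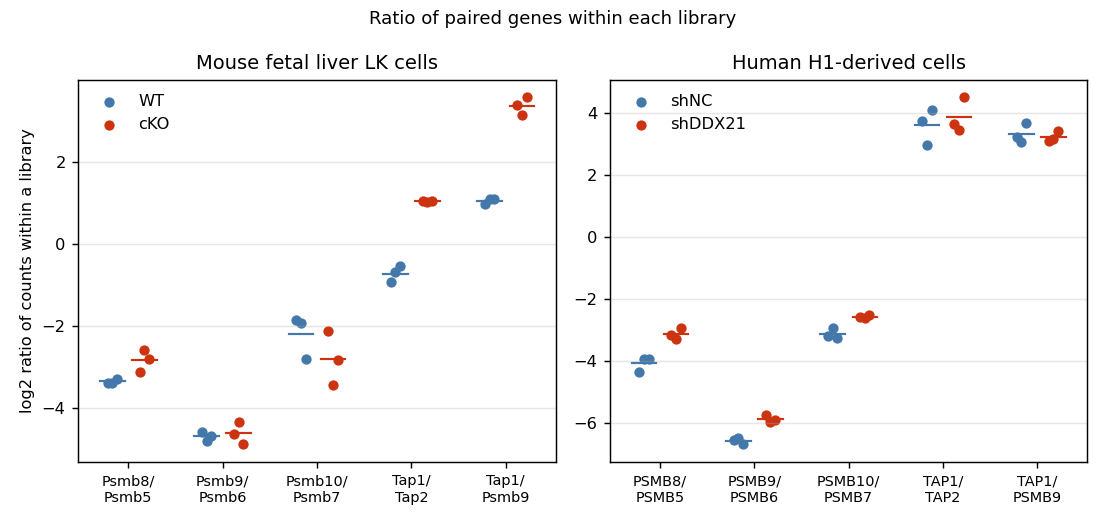
Log2 ratio of counts within each library for the 3 immunoproteasome genes over the constitutive subunits they replace, and for TAP1 over TAP2 and over PSMB9; points are libraries, bars group means. In the human cells the immunoproteasome ratios are higher in every shDDX21 library. In the mouse the 2 Tap1 ratios and the Psmb8 to Psmb5 ratio separate the groups, and the Tap1 to Tap2 ratio changes sign between WT and cKO.

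The start regions of the mouse genes were examined for the letters of motifs known from interferon and MHC regulation, on both strands of 300-base RefSeq windows (GRCm38.p6, 250 bases before to 50 after a start). Windows were found for 6 of the 10 mouse genes (B2m, Tap1, Tapbp, Psmb8, Psmb9 and Psmb10). The motifs were the interferon gamma activated site TTCNNNGAA, found in 8.30% of all 32851 windows, the core of the interferon-stimulated response element (GAAA, 2 unspecified bases, GAAA; 3.44%), CCAAT (37.4%), the cyclic AMP response core TGACG (20.8%) and an NF-kB motif (GGG, 5 unspecified bases, CC; 50.8%). A p53 half-site (8.36%), added after the values had been seen, had no match in the 6 windows. B2m is shown because its window alone, of the 6, held the interferon-stimulated core. The 250 bases before its start read, in the direction of the gene, with the motif matches in capitals (in order, NF-kB on both strands, the interferon-stimulated core, NF-kB again, the cyclic AMP response core, and CCAAT on the other strand):
B2m, chr2:122147437-122147686, plus strand: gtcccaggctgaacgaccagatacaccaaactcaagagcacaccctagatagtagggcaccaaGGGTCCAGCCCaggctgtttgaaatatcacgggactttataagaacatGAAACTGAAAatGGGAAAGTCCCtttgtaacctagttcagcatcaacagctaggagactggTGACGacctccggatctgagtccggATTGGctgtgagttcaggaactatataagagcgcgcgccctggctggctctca

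Tap1 and Psmb9 are shown for their shared start region, since only Tap1 rose. Their RefSeq starts, 34187556 and 34187330 on chromosome 17, leave 225 bases between them, and their windows share 275 bases. Both windows therefore held the same CCAAT and cyclic AMP response core, read from opposite strands. The NF-kB letters occurred in both as well. Psmb8 is shown for the activated-site letters, which of the 6 windows occurred in its window alone. Capitals mark the motif in each stretch:
Tap1, chr17:34187325-34187347, plus strand, CCAAT: ctcggctttCCAATcagcggctg
Tap1, chr17:34187461-34187483, plus strand, cyclic AMP response core: agagacaggTGACGacagagggt
Psmb8, chr17:34198091-34198113, plus strand, activated site: tccgctgTTCCCAGAAgatgccc
The Tapbp window held 2 CCAAT matches and the Psmb10 window none of the motifs searched. RefSeq starts can differ from the starts of the genes as counted. They were 33919478 against 33915899 for Tapbp, 34198195 against 34197721 for Psmb8 and 34187330 against 34187764 for Psmb9. The 212 exon bases shared by Tap1 and Psmb9 belong to the genes as counted. A match describes letters only, and the data hold no measure of binding at these sites.

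The other genes of the pathway were read from lists, as counts in each direction. For every list and marker set below, the background is the share over all genes. That was 20.7% higher and 15.8% lower in the mouse, and 25.3% higher and 27.4% lower in the human experiment. Whether any list departed from these shares was not tested. Of the MHC class I heavy chains, which pair with B2M, all 4 measured in the human cells rose. HLA-C had 45.2, 48.5 and 43.4 CPM in shNC and 62.5, 63.1 and 64.5 CPM in shDDX21 (0.47, SE 0.0470, adjusted p = 3.61e-14), and HLA-E rose by 0.16. In the mouse 1 of 5 tested rose, the nonclassical H2-M3, from 1.30, 0.876 and 1.21 CPM to 1.83, 2.35 and 2.13 CPM (0.89, SE 0.201, adjusted p = 0.0120). The classical chains H2-K1 (0.11) and H2-D1 (0.08) were not called. Class I chains resemble each other in sequence, so the split of their counts is uncertain. Median log2 fold changes were 0.37 for the human and 0.11 for the mouse chains.

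Chaperones and trimming enzymes that load class I molecules were counted next. Of 6 human genes 3 fell, the lectin chaperones CANX (-0.60) and CALR (-0.45) and the disulfide isomerase PDIA3 (-0.10), and 1 rose, the trimming peptidase ERAP1 (0.14). The ERAP1 call was lost with DESeq2 (adjusted p = 0.0621), with total-count scaling (0.0711), without shNC replicate 2 (0.103) and without shDDX21 replicate 3 (0.109), and that of PDIA3 with upper-quartile scaling (0.265). In the mouse 1 of 5 rose, Pdia3 (0.17, adjusted p = 0.0185). This call was lost with DESeq2 (adjusted p = 0.116), with RLE scaling (0.0503) and without WT replicate 1 (0.0763), WT replicate 2 (0.0817) or cKO replicate 3 (0.0620). Canx was at 0.06 and Calr at -0.04. These chaperones serve glycoproteins in general. CALR had 818, 840 and 817 CPM in shNC and 607, 608 and 593 CPM in shDDX21.

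Of the constitutive subunits, PSMB5 (0.22) and PSMB6 (0.19) rose and PSMB7 (-0.18) fell in the human cells. In the mouse none of the 3 was called by edgeR: Psmb5 was at -0.34 (adjusted p = 0.131), Psmb6 at -0.12 (0.468) and Psmb7 at 0.09 (0.0856). Of 5 proteasome activator and assembly genes, 3 rose and 1 fell in the human cells, with PSME1 (0.43), a subunit of the interferon-inducible PA28 activator, and PSME4 (0.20) higher and PSME3 (-0.31), the nuclear PA28 subunit, lower. In the mouse 1 of 5 rose, Psme2 (0.24, adjusted p = 0.0214), the partner of Psme1, a call lost with DESeq2 (adjusted p = 0.0570) and without WT replicate 1 (0.0719) or WT replicate 2 (0.0767). Psme3 was at -0.10 and Pomp, an assembly factor, at 0.05.

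MHC class II chains, the partners of CD74, reached at most 6.17 CPM (HLA-DPA1) in any human library and 4.18 CPM (H2-DMa) in any mouse library. Of 6 human chains 1 rose, HLA-DPA1 (0.47, adjusted p = 0.0100), and this call was lost with DESeq2 (adjusted p = 0.0552) and without shNC replicate 1 (0.146) or shDDX21 replicate 2 (0.0927). HLA-DRB1 (0.35) and HLA-DPB1 (-0.21) did not pass. In the mouse 2 of 7 tested rose and 1 fell. H2-Eb1 had 0, 3 and 1 reads in WT and 13, 11 and 17 in cKO, at least 4.25-fold higher against a floor of 3 counts per library (adjusted p = 0.00814), and passed the filter only through the cKO group. H2-Ob (0.90, adjusted p = 0.0167), part of an inhibitor of peptide exchange, rose. H2-DMb2 (-1.23, adjusted p = 0.0152), part of the exchange factor, fell. It had 22, 19 and 18 reads in WT and 6, 9 and 12 in cKO, and passed the filter only through the WT group. DESeq2 called neither H2-Ob nor H2-DMb2 (adjusted p = 0.0720 and 0.0780). The calls were also lost without WT replicate 2 (H2-Ob, 0.0570) and without WT replicate 1 (H2-DMb2, 0.0554).

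Among 6 lysosomal genes that prepare class II peptides, 3 fell and 1 rose in the mouse. Ctss, the protease that removes the last of the invariant chain in antigen-presenting cells, had 2.83, 2.48 and 2.92 CPM in WT and 0.653, 0.486 and 0.499 CPM in cKO (-2.32, SE 0.188, adjusted p = 0.000106). The thiol reductase Ifi30 fell by 0.64 and Ctsd rose by 0.56. Of the 5 human genes 3 rose and 1 fell. CTSL, another protease of the invariant chain, went from 49.0, 48.8 and 47.3 CPM to 97.9, 100.4 and 95.6 CPM (1.02, adjusted p = 5.76e-34), while CTSB and CTSD rose by 0.29 and 0.32.

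The factors with which NLRC5 and CIITA act on MHC promoters were read in the same way. In the mouse 2 of 7 rose and 3 fell: Rfx5, the DNA-binding subunit of RFX, rose from 14.8, 13.53 and 13.3 CPM to 28.1, 27.7 and 28.5 CPM (1.02, SE 0.0713, adjusted p = 5.29e-05), Nfyb rose by 0.39, and Rfxank, another RFX subunit, fell by 0.39. Of the 3 that fell, Creb1 (-0.16, adjusted p = 0.0384) is uncertain: its call was lost with DESeq2 (adjusted p = 0.110), a replicate block (0.0706), upper-quartile (0.166) or total-count scaling (0.268), a filter of 10 counts in every library (0.0537), and each single library left out (0.0548 to 0.117) other than cKO replicate 2. Of the 7 human factors 1 rose, RFX5 (0.14, adjusted p = 0.00219), and 2 fell, NFYA (-0.61) and NFYB (-0.42). With libraries scaled by total count 4 of the human factors were called lower instead of 2.

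Interferon gamma signalling is a known inducer of many of the 10 genes. Of its 8 human genes 3 rose and 3 fell. IRF2, an interferon regulatory factor, had 21.6, 22.5 and 21.7 CPM in shNC and 36.3, 35.9 and 37.6 CPM in shDDX21 (0.74, SE 0.0632, adjusted p = 6.22e-17), and the kinase JAK1 rose by 0.25. In the mouse 4 of 7 rose and 2 fell. The receptor chain Ifngr1 fell by 0.56 (adjusted p = 3.75e-05), Irf1 rose from 8.57, 7.20 and 7.19 CPM to 11.9, 12.5 and 12.5 CPM (0.68, adjusted p = 0.00178), and the kinase Jak2 fell by 0.28.

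**Figure D4:**
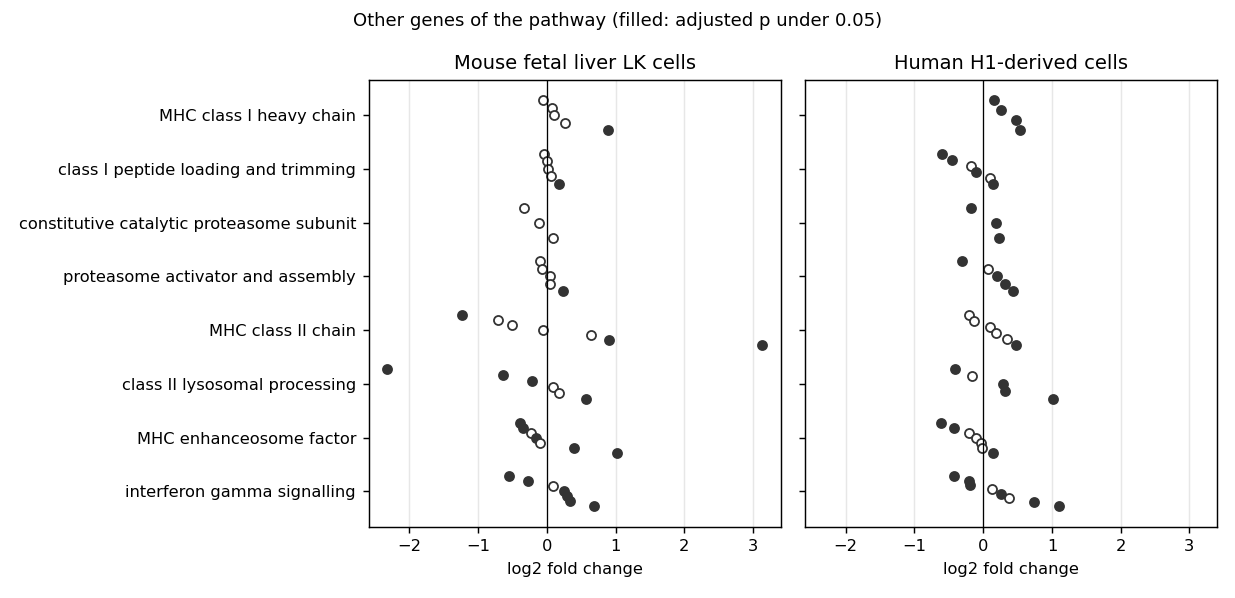
Log2 fold change of every tested gene of the 8 pathway lists, mouse on the left and human on the right; filled points have an adjusted p under 0.05. All 4 human class I heavy chains lie above 0. The mouse class II point near 3 is H2-Eb1, whose WT libraries had 0 to 3 reads, so its fitted position is not a bound.

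Markers of other cell types moved with the groups, and their part in the results was not tested. RNA of the positive gate markers was present: Kit in the mouse (mean 362 CPM in WT, 317 in cKO), and CD34, PTPRC (CD45) and SPN (CD43) in the human cells. A list of 6 progenitor genes, not all of them gate markers, summed to 1311 to 1349 CPM in WT and 1410 to 1422 CPM in cKO. The human sums were 1720 to 1748 CPM in shNC and 1689 to 1720 CPM in shDDX21. Single progenitor genes moved within these sums: in the mouse 2 rose (Cd34 1.61-fold, Ptprc 1.43-fold) and 2 fell (Kit to 0.875 and Spn to 0.908 of WT). In the human cells 3 rose (KIT, CD34 and SPN) and 3 fell, GATA2 to 0.459, MYB to 0.657 and PTPRC, which encodes the gate marker CD45, to 0.730 of shNC. In the mouse, hepatocyte markers summed to 1.31 to 1.67 CPM in WT and 27.96 to 31.6 CPM in cKO. Alb had 9, 5 and 13 reads in WT and 242, 332 and 271 in cKO, and Afp had 18, 20 and 17 in WT and 326, 346 and 333 in cKO. All 4 hepatocyte markers tested were called higher, but Alb, Apob and Ttr passed the filter only through the cKO group. Of the endothelial markers 4 of 5 rose (44.9 to 47.7 CPM in WT, 83.1 to 91.7 CPM in cKO). Among these 4, Cdh5 (14, 11 and 4 reads in WT, 30, 29 and 21 in cKO) passed the filter only through the cKO group. T and NK cell markers summed to 6.23 to 8.35 CPM in WT and 24.2 to 26.4 CPM in cKO. Nkg7 made up nearly all of that sum (6.23, 5.31 and 7.43 CPM in WT, 25.2, 23.2 and 24.2 CPM in cKO). Cd3g was called higher after passing the filter only through cKO, Cd3d and Cd3e had at most 1 read in any library, and Klrd1, not tested, had 16, 8 and 12 reads in WT and 3, 7 and 6 in cKO. Markers of cells that present on class II were lower: monocyte and macrophage markers summed to 77.5 to 80.3 CPM in WT and 37.1 to 38.2 CPM in cKO (5 of 6 tested lower, 1 higher). B cell markers summed to 12.4 to 14.3 and 9.32 to 10.9 CPM (3 of 5 lower), and dendritic cell markers to 86.8 to 92.7 and 71.5 to 76.9 CPM (2 of 4 lower).

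In the human cells 7 of the 10 listed monocyte and macrophage markers were measured. They summed to 624 to 631 CPM in shNC and 564 to 570 CPM in shDDX21 (6 of 7 lower, 1 higher). The 2 dendritic cell markers measured, of 6 listed, summed to 21.6 to 23.1 and 14.5 to 15.9 CPM (2 of 2 lower). B cell markers, 2 measured of 6 listed, summed to 6.24 to 7.20 and 5.44 to 6.72 CPM (1 lower). The 5 endothelial markers summed to 1520 to 1562 and 1390 to 1409 CPM (2 higher, 2 lower). The 5 T and NK cell markers summed to 12.7 to 15.01 and 12.6 to 13.6 CPM (CD3G and KLRD1 higher, NKG7 lower). No mouse marker was at 0 in all libraries. Human genes were matched only by symbols in the deposited normalized table, which held 18674 of the 78932 genes. Listed human markers outside it were not analysed, among them all 5 hepatocyte markers. A human marker at 0 in all libraries could therefore have gone unseen.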

How the data were processed

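The authors deposited 1 raw table per experiment, with integer read counts, the position and the exon length of each gene. The second deposited tables hold normalized values (unit: signal), checked to equal the count divided by 1 constant per library, and were used for symbols only. Their log2 columns, deposited by the authors as ratios to the control libraries, were not used. The submitters' processing notes name STAR, featureCounts, DESeq2, mm10 and hg38. Versions, strand setting and the handling of multiply mapping reads are not given in the sources used here. Of the mouse identifiers, 99.5% were in GENCODE M21, so mouse positions are GRCm38. Human positions are as deposited. Mouse Nlrc5, Cd74 and Ciita were matched by GENCODE symbol. HLA and marker genes without a symbol match were not analysed here.

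Counts were tested per experiment with edgeR 4.0.16 in R 4.3.3 (filterByExpr, TMM, quasi-likelihood test, two-sided, no block) over 14918 mouse and 20188 human genes. SE was taken as the size of the log2 fold change divided by the root of the F statistic. FPKM uses the deposited exon length. Alternatives were other scalings, DESeq2 1.42.0, filters, a replicate block and left-out libraries. On simulated counts (200 genes changed, mean of at least 50 counts), 197 were recovered with 13 false calls among 14630 mouse genes, and 199 with 10 among 19745 human genes. Named genes were all members and, per pathway list, up to 3 genes with the smallest p per experiment (a few of these are not reported here). The members and the lists were chosen with earlier results of these data known. The tests used the spread between the libraries of a group, and not counting error alone. Counts were without molecular identifiers, and the depth was 15289510 to 23898130 counts per library.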

Additional observations from a re-analysis of the deposited data

Results flagged for a closer look

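5 of the 9 members tested in both experiments had effects that differed between them by the interaction test (edgeR, difference as mouse minus human log2 fold change), over all genes a common result (56.3%). The difference was 1.47 for TAP1 (2.26 against 0.79) and 1.12 for NLRC5 (1.80 against 0.68, with few mouse reads). It was -1.10 for TAPBP (-0.34 against 0.76), -1.01 for PSMB8 (0.16 against 1.18) and -0.99 for PSMB9 (-0.05 against 0.94). Groups of 3 libraries are too small for a test of single outlying libraries.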

How the results depend on the processing

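Depth limits mouse Ciita, Cd74 and Nlrc5 and human TAP2 and PSMB9, which rest on few reads per library. The count of mouse members called was 3 and became 5 with RLE scaling, upper-quartile scaling, no filter on low counts or a replicate block (the block added Tap2 as higher and Tapbp as lower), and 2 to 4 when 1 library was left out. Replicate numbers did not pair the samples (correlations of same-numbered deviations 0.644, -0.421 and 0.0865 in the mouse, and -0.0283, -0.00032 and -0.0072 in the human experiment). The human count was 8, and 7 to 8 without 1 library; members with different effects were 5, and 4 to 6. All mouse genes called numbered 5443, and 3717 to 5671 without 1 library (3717 without cKO replicate 3); human genes numbered 10631, and 9820 to 10079.

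The Psmb9 to Psmb6 ratio difference changed sign, -0.072 to 0.21 without 1 library. Mouse Psmb9 was 0.016 with total-count scaling and -0.13 to 0.058 without 1 library (-0.14 without WT replicate 3 and cKO replicate 2). The B2M difference between experiments was -0.021 with upper-quartile scaling and -0.0037 to 0.065 without 1 library. The TAP2 difference was 0.0020 with total-count scaling and -0.36 to 0.090 without 1 library. The human ratio of TAP1 to TAP2 was -0.051 to 0.52 and that of TAP1 to PSMB9 -0.23 to 0.061 without 1 library. None of these sign changes concerned a called value, and the cause was not tested. Of the mouse pathway lists, loading and trimming, constitutive subunit, and activator genes called ranged over 0 to 1, 0 to 1 and 0 to 2.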
